A study of Mus musculus with 4 samples.

Results

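Runx2 occupancy was examined at 45 mouse genes of the cell cycle and of DNA replication, of 22359 protein-coding genes in the annotation. The genes were given as a list of symbols, and each symbol matched 1 gene of GENCODE M1. For each gene, the peaks of the day 0, day 9 and day 28 lists that overlapped the gene body widened by 10 kb on each side were collected. The windows of the 45 genes did not overlap each other, and they held 76 of 25457 peaks at day 0, 147 of 60596 at day 9 and 115 of 40330 at day 28.

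The cells were subclone 4 of MC3T3-E1, a preosteoblast line that was derived from the calvaria of C57BL/6 mice and forms a mineralized matrix in culture when ascorbic acid and beta-glycerophosphate are added. Chromatin was taken from proliferating preosteoblasts at day 0, from osteoblasts that were depositing matrix at day 9, and from cultures that were mineralizing their matrix at day 28. It was precipitated with an antibody against Runx2 (M70) and sequenced (ChIP-Seq). The reads of 2 libraries were pooled at each time point before peaks were called against pooled input DNA of day 9, so there was 1 peak list for each time point and no comparison between time points could be tested. All 3 lists came from this 1 cell line, and no gene expression was measured in them.

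Runx2 is the transcription factor on which osteoblast formation depends, and it binds the hexamer TGTGGT through its Runt domain. Osteoblast precursors leave the cell cycle as they mature. Genes of the cell cycle are known to be switched on in waves: E2F factors, freed when D cyclins with Cdk4 or Cdk6 phosphorylate the retinoblastoma protein, turn on replication genes at the start of S phase, and NF-Y with complexes at CHR elements turns on mitotic genes later.

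A Runx2 peak within 1 kb of an annotated transcription start site (TSS) was found for most of the 45 genes. At day 0, 39 genes had such a peak (86.67%, 95% exact binomial interval 73.21 to 94.95), against 43.5% of the 22314 other protein-coding genes. At day 9 the count was 43 (95.56%, 84.85 to 99.46) against 53.2%, and at day 28 it was 42 (93.33%, 81.73 to 98.6) against 51.0%. At all 3 time points 36 of the 45 had a TSS peak (80%), against 42.4% of other genes. None of the 45 lacked a TSS peak at every time point, whereas 44.9% of other genes did. Anywhere in the widened gene body, 41, 44 and 44 of the 45 genes had a peak at days 0, 9 and 28, against 58.9%, 72.2% and 66.3% of other genes. The intervals cover counting error over genes only, since genes are not replicates.

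The difference was smaller against other genes with a like sequence around their starts. A CpG-rich start was taken as a GC content of at least 55% and an observed to expected CpG ratio of at least 0.6 in the 500 bp on either side of the TSS, and 28 of the 45 genes had one (62.22%) against 39.2% of other genes. Among the other genes with a CpG-rich start, 75.15%, 86.12% and 84.47% had a TSS peak at days 0, 9 and 28. The 28 CpG-rich genes of the list stood at 89.29%, 96.43% and 92.86%, which was 14.13, 10.31 and 8.384 percentage points higher, each with an interval that included 0. Of the 17 genes without a CpG-rich start, 14, 16 and 16 had a TSS peak, against 23.1%, 31.94% and 29.44% of other such genes. Of those 17, 11 met the CpG ratio and missed the GC minimum alone. In that class 8, 10 and 10 of the 11 had a TSS peak, and 72.88%, 83.28% and 83.41% of 1519 other genes did. Anywhere in the widened gene body, 92.86%, 96.43% and 96.43% of the 28 CpG-rich genes had a peak, and 85.16%, 94.79% and 91.65% of other genes with a CpG-rich start.

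**Figure D1:**
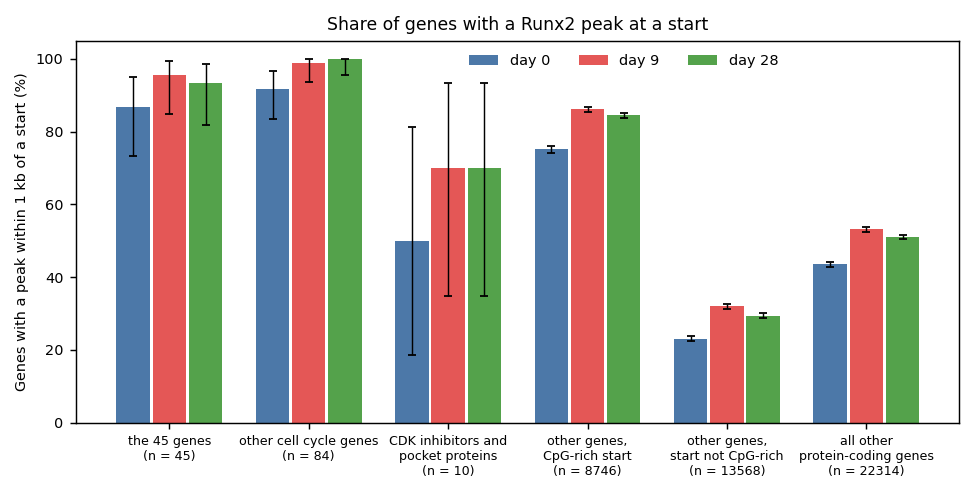
Percentage of genes with a Runx2 peak within 1 kb of a TSS (y axis) for 6 sets of genes (x axis) at day 0, day 9 and day 28, with 95% exact binomial intervals as error bars. The 45 genes stand at 86.67% to 95.56%, above all other protein-coding genes (43.5% to 53.2%) and nearer to other genes with a CpG-rich start (75.15% to 86.12%).

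Although TSS peaks were frequent at the 45 genes, they ranked lower than those of other genes. The score of a peak is 10 times the −log10 of the p-value that MACS gave it, with 100 as the lowest score kept. Each score was also expressed as a percentile of its own list, to set genes side by side within a list, and the highest-scoring peak within 1 kb of a TSS stood for each gene. Over the genes with a peak, the median percentiles of days 0, 9 and 28 were 49.6, 67.2 and 64.9, against 61.9, 82 and 78.8 for other genes with a TSS peak. Other genes with a CpG-rich start had medians of 65.2, 86.3 and 83.9. The excess of the 45 genes changed with the threshold. With a p-value of 1e-20 required, it was smaller at days 0 and 28 and not at day 9: the difference from other genes was 19, 45.13 and 30.36 percentage points at days 0, 9 and 28. With lists cut to equal length the difference was 31.95 points at day 9 and 26.82 at day 28, against 42.38 and 42.32 with the full lists. With a p-value of 1e-50 required, the share with a TSS peak was 24.44%, 46.67% and 53.33%, and the difference from other genes was 9.709, 7.23 and 14.95 percentage points, with intervals that included 0. The 28 genes with a CpG-rich start then stood at 50% at day 9 against 73.53% of other genes with such a start, a difference of -23.53 points (-42.88 to -4.178).

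Percentiles place a peak within its own list, and lists that differ in length and in their share of weak peaks shift the percentile of all TSS peaks, so that a difference between lists is not a measured change in binding. The TSS peaks had a higher percentile in the day 9 list than in the day 0 list for 36 of the 38 genes with a peak in both, with a median difference of 23.2 percentile points. The exceptions were E2f1 and Top2a. Between the day 9 and day 28 lists the percentile was lower on day 28 for 30 of 41 genes, with a median difference of -6.13. The other protein-coding genes were near these values: 90.54% had the higher percentile at day 9 over day 0 (median difference 20), and 34.39% had the higher percentile at day 28 over day 9, against 26.83% of the 41.

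**Figure D2:**
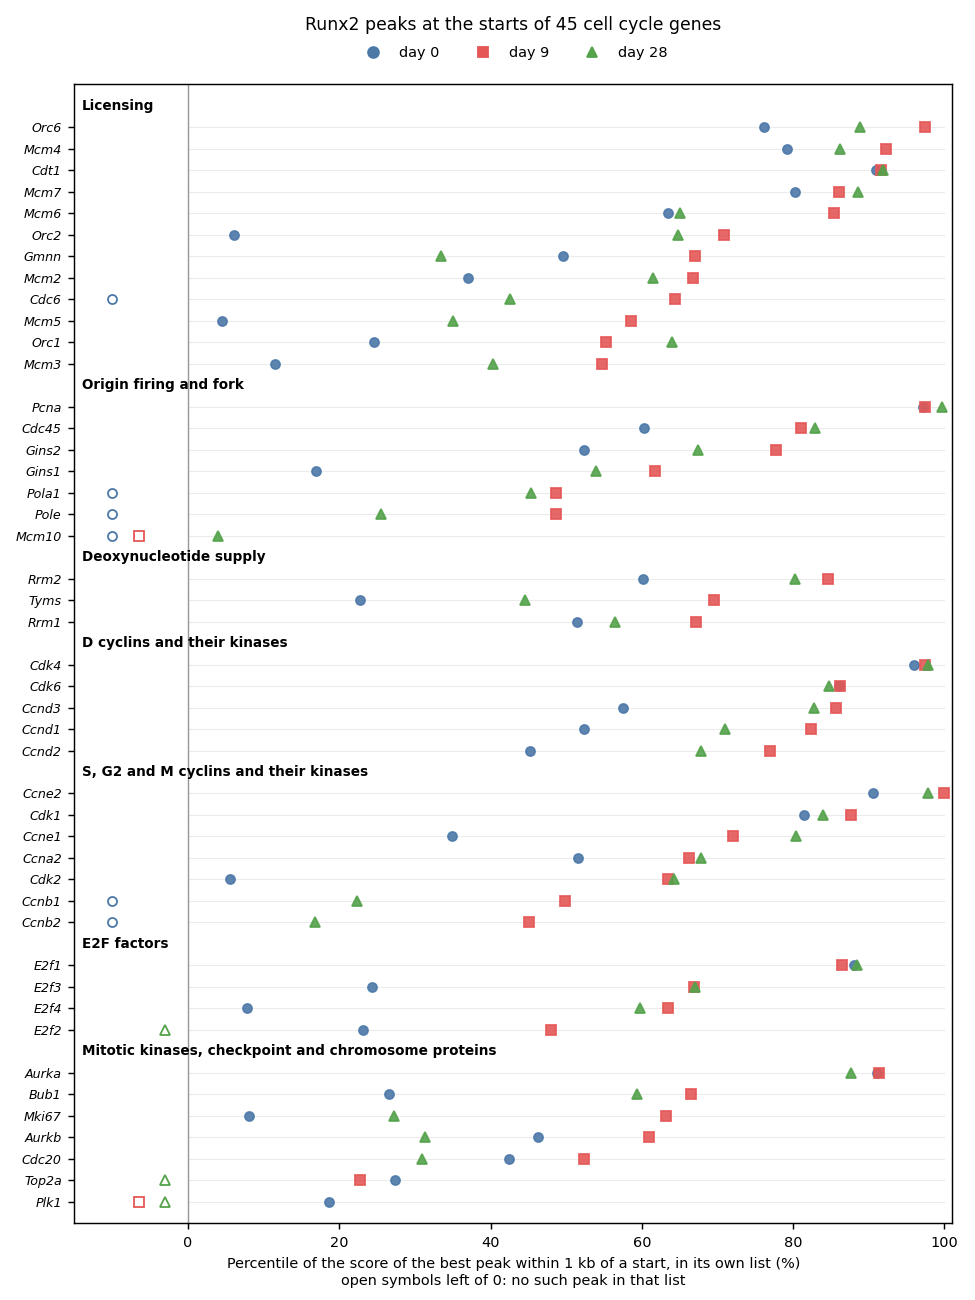
Percentile within its own list of the highest-scoring Runx2 peak within 1 kb of a TSS (x axis) for each of the 45 genes (y axis, by role), with a symbol for each of day 0, day 9 and day 28 and open symbols left of 0 where a list held no such peak. Cdt1, Pcna, Cdk4 and Ccne2 lie above 90 at all 3 time points, and 9 genes lack the peak in at least 1 list.

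The genes that license replication origins load the Mcm2 to Mcm7 helicase with the help of the origin recognition complex, Cdc6 and Cdt1. All 12 had a TSS peak at days 9 and 28, and 11 had one at day 0. Orc6, a subunit of the origin recognition complex, had the highest day 9 rank among them. Its peak scored 546.2 at day 0, 3100 at day 9 and 1755.7 at day 28 (chr8:87822769-87824196 at day 9), and the day 9 score lies at percentile 97.4, a value tied by 2699 peaks of that list. The same peak lies within 1 kb of the TSS of the neighbouring gene Vps35. Cdt1, which brings the helicase to the origin, scored 1014.9, 2132.4 and 2160.3 at days 0, 9 and 28, at percentiles 91 to 91.9 in each list. Cdc6 was the licensing gene without a TSS peak at day 0, and its peaks scored 441.9 at day 9 and 264.1 at day 28. The Mcm genes spread widely: at day 9 Mcm4 stood at percentile 92.3, Mcm7 at 86.1 and Mcm6 at 85.4, whereas Mcm5 stood at 58.6 and Mcm3 at 54.8. Gmnn, the inhibitor of Cdt1, scored 268.6, 494 and 205.

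The genes of origin firing and of the replication fork were less evenly occupied. Of 7 genes, 4 had a TSS peak at day 0, 6 at day 9 and 7 at day 28. Pcna, the sliding clamp of the DNA polymerases, scored 1886.2, 3100 and 3121.7 (chr2:132078230-132079324 at day 9) and ranked at percentiles 97.2, 97.4 and 99.7. It was the highest-ranking of the 45 genes at day 0 and, by the deposited score, at day 28. Cdk4 and Ccne2 had the score of 3100 shared by 1468 peaks at day 28, and their order against Pcna cannot be told. Pola1 and Pole, the catalytic subunits of polymerases alpha and epsilon, had TSS peaks of 255.1 and 254.8 at day 9 and of 287.6 and 168.2 at day 28, and neither had one at day 0. For Mcm10, which acts when the helicase is activated, the TSS peak was present at day 28 alone and scored 107.2, close to the minimum of 100. The GINS subunits Gins1 and Gins2 scored 135.8 and 285.9 at day 0, and 397.4 and 854.4 at day 9. Cdc45, which joins GINS on the helicase, scored 350.6, 1030.6 and 1260.6.

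The deoxynucleotide genes Rrm1, Rrm2 and Tyms had TSS peaks in all 3 lists. Rrm2, the small subunit of ribonucleotide reductase, led them with scores of 349.2, 1276.2 and 1097.9. Rrm1, the large subunit, stood at percentiles 51.4, 67.2 and 56.4. Tyms, the thymidylate synthase, stood at 22.8, 69.6 and 44.6.

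The D cyclins and their kinases, which drive cells through G1, formed the role group with the highest median rank at all 3 time points (57.5, 85.7 and 82.7), and all 5 genes had a TSS peak in each list. Cdk4 scored 1578.3, 3100 and 3100 (chr10:126500159-126501188 at day 9). Its percentiles of 96, 97.4 and 97.8 were close to the top of each list. Cdk6 stood at 86, 86.2 and 84.7, and its day 0 peak spanned 3663 bp. Its highest day 28 peak was centred at -1659 bp from the TSS, and the day 28 peak over the main TSS stood at 78.8. Among the D cyclins, Ccnd1 scored 286.7, 1114.8 and 728.5, Ccnd2 243.7, 815.4 and 634.4, and Ccnd3 326.9, 1381.2 and 1243.9. For Ccnd3 the highest day 0 peak lay at its downstream alternative TSS, and the peak at the upstream TSS scored 163.2 on that day.

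Of the 7 later cyclins and their kinases, 5 had a TSS peak at day 0 and all had one at days 9 and 28. Ccne2, an E cyclin that works with Cdk2 at the entry into S phase, scored 991.8, 3187.6 and 3100 (chr4:11117451-11119659 at day 9). Its day 9 percentile of 99.9 was the highest of the 45 genes by the deposited score. Orc6, Pcna and Cdk4 had the score of 3100 shared by 2699 peaks on that day, and their order against Ccne2 cannot be told. Cdk1, the kinase of mitosis, scored 651.7, 1582.5 and 1335.4. Its B-type partners Ccnb1 and Ccnb2 had no peak at day 0 in their whole windows, and their TSS peaks scored 263.8 and 229.5 at day 9 and 156.7 and 138.3 at day 28. Ccna2, the cyclin of S phase and early mitosis, scored 281, 477.3 and 635.9. Cdk2 stood at percentile 5.57 at day 0 and at 63.5 and 64.2 at days 9 and 28.

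Among the E2F factors, E2f1 had the strongest TSS peaks, with scores of 861.6, 1449.6 and 1713.3 and percentiles of 88.1, 86.4 and 88.5. E2f3 and E2f4, an activator and a repressor of the family, had low day 0 peaks of 157 and 115.3. E2f2 had a TSS peak of 152.8 at day 0 and 250.2 at day 9 and none at day 28.

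Of the 7 mitotic genes, 7 had a TSS peak at day 0, 6 at day 9 and 5 at day 28, and the decrease rested on Plk1 and Top2a. Their median percentile was 27.4, 62 and 31.3, the lowest of the 7 role groups at days 9 and 28. Plk1, the kinase of mitotic entry, had a TSS peak at day 0 that scored 140.2 (chr7:129302722-129303583), and its window held no peak at day 9 or day 28. Top2a, the topoisomerase that untangles sister chromosomes, had TSS peaks of 166.9 at day 0 and 139.9 at day 9 and none at day 28. These were low scores, and with a p-value of 1e-20 required (a score of 200) no TSS peak of Plk1 or Top2a remained in any list. Aurka, the spindle pole kinase, was far higher, with scores of 1022.4, 2099.0 and 1637.1, but its peak also lies within 1 kb of the TSS of Cstf1. The checkpoint kinase Bub1 scored 164.2, 483.9 and 459.6, Cdc20, the activator of the anaphase-promoting complex, 228.9, 285.3 and 191.8, and Mki67, which encodes the proliferation marker Ki-67, 115.6, 420.1 and 175.7.

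A TSS peak does not always belong to 1 gene. For 9 of the 45 genes (20%) a TSS peak of at least 1 list also lay within 1 kb of a TSS of another protein-coding gene, against 20.86% of the other genes with a TSS peak. By day 9 rank the first 5 were Orc6 with Vps35, Mcm4 with Prkdc, Aurka with Cstf1, Mcm7 with Ap4m1 and Cdc45 with Ufd1l. To which gene of a pair such a peak relates cannot be told apart from these data.

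The promoters of the 45 genes held the letters of known cell cycle elements in the 250 bp before and 50 bp after the TSS, searched on both strands. An E2F site was searched as TTTCCCGC or TTTGGCGC, and 12 of the 45 promoters held at least 1 of these (26.67%, 14.6 to 41.94), against 1.981% of other promoters and 2.969% of the other promoters with a TSS peak. Of the 12, 6 were licensing genes, 3 acted at origin firing or the fork, 2 were E2f1 and E2f2, and the last was Cdk2. CCAAT, the element of NF-Y, was held by 31 promoters (68.89%) against 37.4% of others, and by all 7 mitotic genes. TTTGAA, the core of the CHR element, was held by 11 (24.44%) against 15.79% of others, and 6 of these 11 were mitotic genes. The Runx hexamer TGTGGT was held by 7 promoters (15.56%), near the 15.18% of others. None of these motifs contains another, and a match is a match of letters, not a measured site.

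The promoter stretches below show where E2F letters lay inside Runx2 peaks. They are sense-strand sequence of NCBIM37 (mm9), 5′ to 3′, upstream of the TSS, with the E2F letters in capitals, for the genes with such letters before the TSS in which the stretch lay whole inside the TSS peak of all 3 lists.
Mcm3, chr1:20810360-20810400, minus strand: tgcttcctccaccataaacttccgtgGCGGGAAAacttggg
Mcm4, chr16:15637684-15637743, minus strand: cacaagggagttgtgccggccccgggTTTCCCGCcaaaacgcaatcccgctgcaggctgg
Mcm5, chr8:77633233-77633292, plus strand: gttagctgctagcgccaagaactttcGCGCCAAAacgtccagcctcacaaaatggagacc
Mcm6, chr1:130256296-130256355, minus strand: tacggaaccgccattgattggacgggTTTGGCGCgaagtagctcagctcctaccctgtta
Gins1, chr2:150735295-150735329, plus strand: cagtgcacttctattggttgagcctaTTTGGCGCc
Cdk2, chr10:128142214-128142273, minus strand: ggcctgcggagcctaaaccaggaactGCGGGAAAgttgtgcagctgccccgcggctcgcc
Counted from the TSS, the first capital lay at -15 in Mcm3, -224 in Mcm4, -168 in Mcm5, -96 in Mcm6, -9 in Gins1 and -140 in Cdk2. The Mcm6 promoter holds another copy at -159. The same kind of stretch lay inside the peaks of days 9 and 28 but in no day 0 peak for Pola1, inside the day 9 peak for Cdc6, whose day 28 peak ended 1 base short of its end, and in no peak for E2f2, whose TSS peaks lay downstream of its start.

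Beyond the starts, the windows held further peaks. Peaks of the 3 lists that overlapped were merged into 146 regions, of 67703 in the genome. Of these, 49 lay within 1 kb of a TSS of the gene itself, 30 within 1 kb of a TSS of a neighbour, 31 in introns, 5 in exons, 14 upstream and 17 downstream. The mean number of peaks per window was 1.689, 3.267 and 2.556 at days 0, 9 and 28, against 1.253, 2.799 and 1.897 for other genes, with median windows of 35.31 and 35.43 kb. The median number was 1, 2 and 2, against 1, 2 and 1 for other genes. Per 10 kb of window the 45 genes held 0.3338, 0.6456 and 0.5051 peaks, and other genes 0.1913, 0.4273 and 0.2897. The 28 genes with a CpG-rich start held 0.2803, 0.528 and 0.4041 per 10 kb, and other genes with such a start 0.2357, 0.514 and 0.3516. Mean counts per window of the 28 were lower, at 1.536, 2.893 and 2.214 against 1.897, 4.139 and 2.831, with median windows of 30.58 and 46.77 kb. The 17 genes without such a start held 0.4443, 0.8885 and 0.7135 per 10 kb, against 0.15, 0.3467 and 0.2321.

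The D cyclins with their kinases and the E2F genes held 36 of the 67 regions with no protein-coding TSS within 1 kb. The 5 D cyclin and kinase windows held 14, 42 and 25 peaks at days 0, 9 and 28, and the 4 E2F windows held 9, 23 and 18. The 7 windows of the later cyclins and kinases held 6, 9 and 9 peaks and were shorter, with a median of 29.55 kb against 45.27 kb for the D cyclins and their kinases. Per 10 kb the D cyclin and kinase windows held 0.3385, 1.016 and 0.6045 peaks, the E2F windows 0.4479, 1.145 and 0.8957, and the later cyclin and kinase windows 0.2785, 0.4177 and 0.4177. The windows with the most regions were those of Ccnd3 with 10, Ccnd1 with 9, and Cdk6, Cdt1, E2f2 and E2f4 with 7 each.

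At Ccnd1, the strongest region was not at the TSS. It was centred upstream, at -3473 bp from the TSS (chr7:152128700-152129793), and it scored 2132.9, 3100 and 2996.6 at days 0, 9 and 28. A region in an intron (chr7:152123191-152124356) scored 910.7, 1841.8 and 1593.3, and another at -1676 bp scored 356.3, 953.2 and 1263.6. Of the other 6 regions, 1 of the 2 within 1 kb of the TSS was present in all lists. The other 5, which include the second TSS region, were in the day 9 list but not in the day 0 list. Ccnd3 had 7 intronic regions along its gene body. The intronic region at chr17:47704103-47704809 had no day 0 peak and scored 1242.0 at day 9 and 712.2 at day 28. At Cdk6 all 6 intronic regions lacked a day 0 peak, and 5 of the 6 were in the day 9 list alone, with scores from 126.5 to 699.4.

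At E2f2, the TSS peaks were weak but 4 regions lay in introns. The strongest (chr4:135733270-135734487) had no day 0 peak and scored 2061.5 at day 9 and 1418.0 at day 28. The highest-scoring region of the Cdc6 window lay downstream, inside the body of the retinoic acid receptor gene Rara (chr11:98790421-98793789), and scored 1604.7, 3100 and 3100. Among the mitotic genes, Aurkb, the kinase of the chromosomal passenger complex, had 4 regions, all present at all 3 time points, with 918.9, 1287.2 and 990.2 at the upstream region centred at -4758 bp. Here, too, a window may reach into neighbours: a peak in a window was counted for the gene by position alone.

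**Figure D3:**
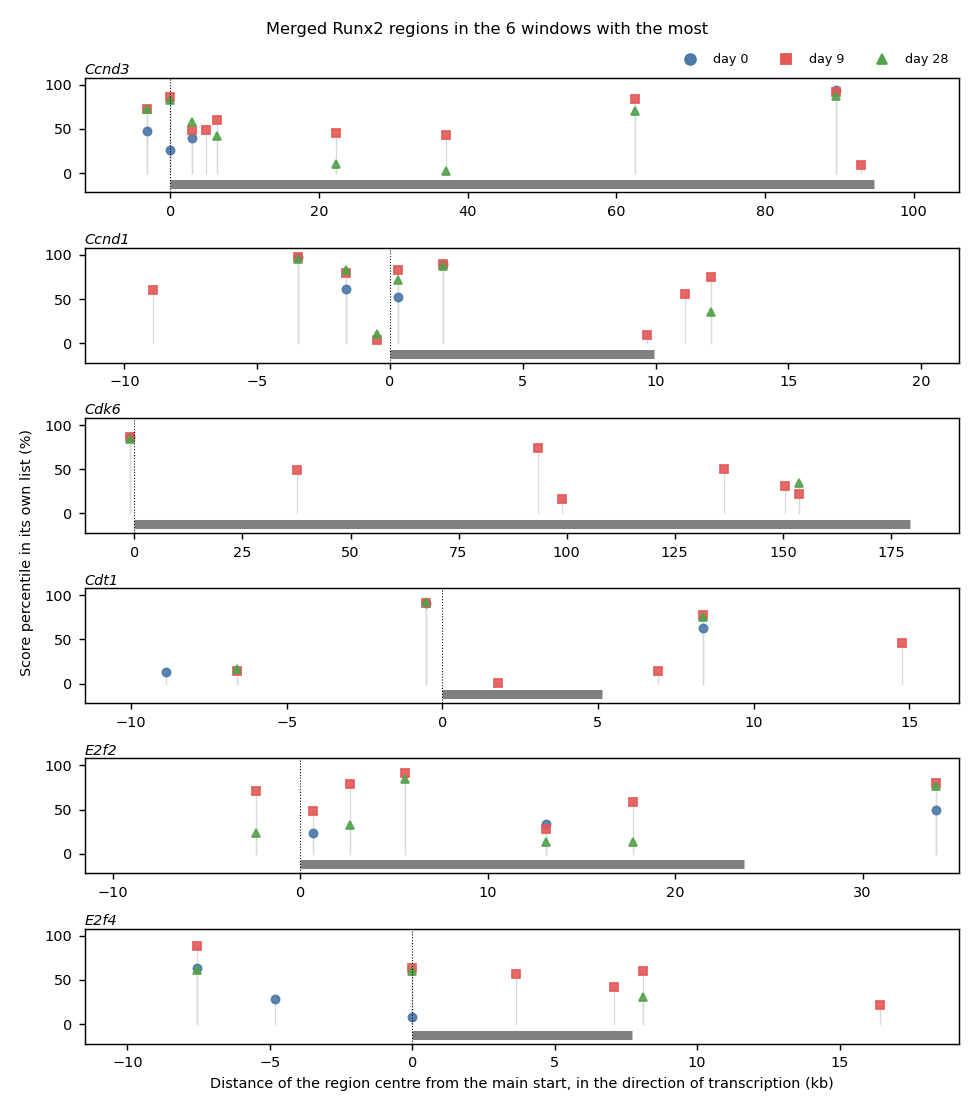
Merged Runx2 regions in the windows of Ccnd3, Ccnd1, Cdk6, Cdt1, E2f2 and E2f4, by distance of the region centre from the main TSS in kb along the direction of transcription (x axis) and score percentile in its own list (y axis), with a symbol for each list that held a peak and a grey bar for the gene body. The upstream region of Ccnd1 lies above 95 in all 3 lists, and 5 of the 6 intronic regions of Cdk6 carry the day 9 symbol alone.

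The time points at which a region held a peak differed between starts and the rest of the windows. Of the 49 regions at the genes' own starts, 37 held a peak in all 3 lists (75.51%, 61.13 to 86.66), against 67.07% of the regions at the starts of other genes. Of the 67 regions with no protein-coding TSS within 1 kb, 11 did (16.42%, 8.491 to 27.48), against 17.43% in the windows of other genes. In these 67 regions, 22 held peaks at days 9 and 28 and not at day 0, and 22 at day 9 alone. A further 4 held peaks at day 28 alone, 5 at day 0 alone and 3 at days 0 and 28. In this order the shares were 32.84%, 32.84%, 5.97%, 7.463% and 4.478%. Such regions in the windows of other genes stood at 23.3%, 41.72%, 8.155%, 5.529% and 2.014%. Each share of the other windows lay within the interval of the 67 regions. The day 9 list was the longest of the 3, which bears on any count of regions found on that day alone. Over all 146 regions the share with a peak in all 3 lists was 44.52% (36.3 to 52.97), against 30.74% for other gene windows. Regions with no protein-coding TSS within 1 kb made up 67 of these 146 regions, and 35992 of the 49176 regions of other gene windows.

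**Figure D4:**
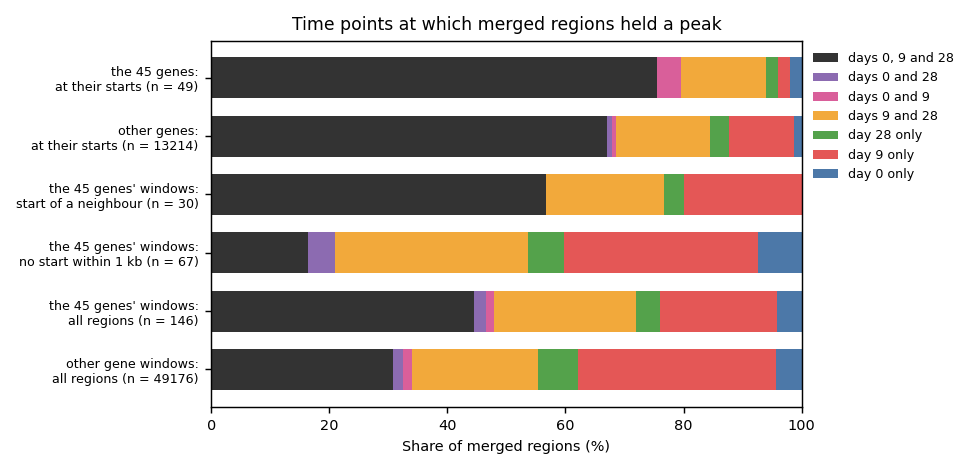
Share of merged regions (x axis, %) by the time points at which they held a peak, for regions at the starts of the 45 genes and of other genes, for the other regions in the windows of the 45 genes, and for all regions in gene windows. At the starts of the 45 genes 75.51% of regions held a peak at days 0, 9 and 28, and away from any start 16.42% did.

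At days 9 and 28, but not clearly at day 0, the Runx hexamer was more frequent at the centre of peaks away from starts than of TSS peaks. It was searched within 50 bp of the midpoint of each peak and, as background, in windows of the same length 450 to 550 bp to either side. At day 9, 19 of the 63 peaks in the windows of the 45 genes with no TSS within 1 kb held it (30.16%, 19.23 to 43.02), against 4.762% of their flanks. Such peaks elsewhere held it at 30.57%. Of the 54 TSS peaks of the 45 genes, 4 held it (7.407%, 2.055 to 17.89), against 3.704% of their flanks and 7.388% of the TSS peaks of other genes. These 4 belonged to Ccnd1, Ccnd2, Cdt1 and E2f1. At day 28 the hexamer was at the centre of 12 of 46 peaks away from starts (26.09%) and of 0 of 46 TSS peaks, an interval of 0 to 7.706%. At day 0 it was at 2 of 20 (10%) and 3 of 40 (7.5%), with intervals of 1.235 to 31.7% and 1.574 to 20.39%. The flanks of these day 0 peaks held it at 2.5% and 1.25%, and those of the day 28 peaks at 2.174% and 4.348%. In each list the share in other peaks of the same class lay within the interval of the 45 genes.

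**Figure D5:**
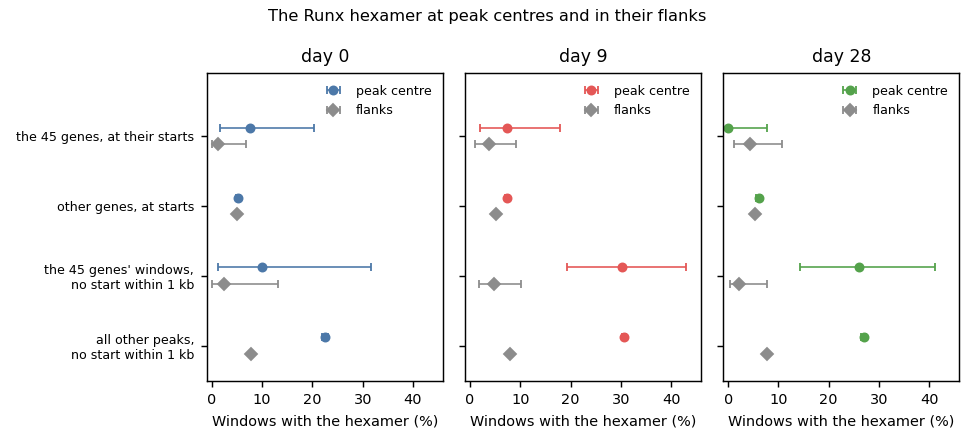
Percentage of windows with the Runx hexamer (x axis) at peak centres and in flanks of the same length, for peaks at the starts of the 45 genes, at other starts, in the windows of the 45 genes away from starts, and for all other peaks away from starts, with 95% exact binomial intervals, in 1 panel for each list. At day 9 peaks of the windows away from starts stand at 30.16% at their centres and 4.762% in their flanks, and TSS peaks at 7.407% and 3.704%.

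The 5 highest-scoring day 9 peaks of the windows that held the hexamer at their centre and overlapped no annotated exon there are shown by their central stretch, 50 bp to either side of the midpoint, from the plus strand of NCBIM37 (mm9), with the hexamer or its reverse complement in capitals.
Ccnd1, upstream, chr7:152129211-152129311: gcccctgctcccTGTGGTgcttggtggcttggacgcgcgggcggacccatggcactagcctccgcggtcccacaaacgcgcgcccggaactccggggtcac
Cdt1, at the TSS, chr8:125091584-125091684: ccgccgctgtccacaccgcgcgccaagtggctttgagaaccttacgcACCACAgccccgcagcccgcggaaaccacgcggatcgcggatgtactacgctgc
Ccnd3, intron, chr17:47704355-47704455: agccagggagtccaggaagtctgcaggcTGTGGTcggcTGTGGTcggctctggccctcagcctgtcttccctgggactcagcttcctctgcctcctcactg
Mcm6, intron, chr1:130247171-130247271: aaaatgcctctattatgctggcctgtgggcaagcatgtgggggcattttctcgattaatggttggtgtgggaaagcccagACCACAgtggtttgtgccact
Gins1, upstream, chr2:150725661-150725761: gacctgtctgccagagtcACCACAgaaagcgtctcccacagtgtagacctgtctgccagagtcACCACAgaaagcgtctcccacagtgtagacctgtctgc
Their day 9 scores were 3100, 2132.4, 1242.0, 966.7 and 450.4 in this order. The Ccnd3 and Gins1 centres each hold the hexamer at 2 places, and in Gins1 the copies lie in a tandem repeat.

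Other genes of the same pathway were set beside the 45 from a fixed list of 85 symbols, of which 84 matched. They comprised further replication factors, checkpoint kinases, kinesins and centromere proteins. Of these 84, 77 had a TSS peak at day 0 (91.67%), 83 at day 9 (98.81%) and 84 at day 28 (100%). Among all protein-coding genes outside the 45, 43.5%, 53.18% and 51.01% had one. Among those of them with a CpG-rich start, 75.15%, 86.12% and 84.47% had one, and the 84 were not split by CpG content. The median percentiles of the 84 were 61.2, 78.8 and 71.1, each above those of the 45 genes. Each was below the 61.9, 82 and 78.8 of all protein-coding genes outside the 45 with a TSS peak. Foxm1, the transcription factor of the mitotic genes, scored 849.2, 3100 and 2917.2, and Birc5, which encodes survivin, 1195.3, 3100 and 3100. Of the 7 without a day 0 TSS peak, Cenpe, Cenpf, Kif20a, Tpx2, Racgap1 and Pttg1 gained one at day 9, and Cdc25c, the phosphatase that activates Cdk1, had one at day 28 alone.

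The brakes of the cycle, 10 genes of CDK inhibitors and pocket proteins, had a TSS peak in 5, 7 and 7 cases. At days 0, 9 and 28 this was 50% (18.71 to 81.29), 70% (34.75 to 93.33) and 70% (34.75 to 93.33). The other protein-coding genes, which include these 10, stood at 43.5%, 53.18% and 51.01%, within the 95% interval of each day. Over those of the 10 with a TSS peak, the median percentiles were 73.4, 88.7 and 87. All other protein-coding genes with a TSS peak had medians of 61.9, 82 and 78.8. Cdkn1a, which inhibits the kinases of G1 and S phase, scored 926.9, 3100 and 3100. The pocket proteins Rbl1 and Rbl2 had TSS peaks in all 3 lists, and Rb1 had none at day 0 and 1223.6 and 1101.3 at days 9 and 28. Cdkn2a and Cdkn2b had no peak in their windows in any list.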

How the data were processed

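Peak lists of Runx2 ChIP-Seq in MC3T3-E1 cells were analysed as deposited. The authors aligned single-end reads (CASAVA 1.6, Bowtie 0.12.8) to mm9, pooled 2 biological replicates per time point, and called peaks with MACS 1.4.1 against 2 pooled input libraries of day 9 at a p-value threshold of 1e-10. The deposited score is 10 times the −log10 of the peak's p-value, from 100 to 3233.06. The score 3100 was shared by 192, 2699 and 1468 peaks at days 0, 9 and 28. The lists do not explain this tie, so peaks scored 3100 and peaks scored above it cannot be put in order. The lists hold no read counts. The study's supplement gives raw read totals for the pooled libraries, and the day 0 pool, which has the shortest list, had the most reads. Those totals were not used here, and the mapped depth behind each peak is not in the lists. Percentiles and lists of equal length were used because score and list length differ between lists, and neither makes a rank in 1 list equal to a rank in another. The input library has no peak list.

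Genes, transcripts and start sites were taken from GENCODE M1 (Ensembl release 65) on NCBIM37, the assembly of mm9, and 0 peaks fell outside its chromosomes. A gene had a TSS peak where a peak overlapped, by at least 1 bp, 1 kb on either side of the TSS of any of its protein-coding transcripts. Peaks that overlapped between lists by at least 1 bp were merged. CpG content and promoter letters were read at the TSS of the transcript with the longest coding sequence. Shares carry 95% Clopper-Pearson intervals, which cover counting error only. With 1 pooled list per time point no p-value was computed. Genes were named by a fixed rule: the first of each role by day 9 percentile, the 5 with the most merged regions with ties, all without a TSS peak in at least 1 list, and the shared TSS peaks. Further genes were named for their role after their values were seen. The genes and lists were chosen with earlier results of these data known. Python 3.11.15, NumPy 2.4.6, SciPy 1.17.1, pysam 0.24.0 and samtools 1.23.1 were used, and the scripts were tested on simulated peaks. Alternatives were stricter thresholds, lists of equal length, other distances from the TSS, other windows and other motif windows.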

Additional observations from a re-analysis of the deposited data

How the results depend on the processing

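Among the alternative values computed, 4 changed sign, whether or not they lay within the interval of the reported value. Of the rest, 66 lay within that interval (or, for a count, within 1.5 times of the reported value). The other 35 lay outside it with the same direction. The share of genes with a TSS peak depended most on the threshold. With a p-value of 1e-20 required it was 53.33% at day 0, 77.78% at day 28 and 48.89% at all 3 time points, and the difference from other genes was 19 points at day 0 and 30.36 at day 28. With 1e-50 it was 24.44%, 46.67% and 53.33% at days 0, 9 and 28 and 24.44% at all 3, with differences of 9.709, 7.23 and 14.95. With lists of equal length (25457 peaks) it was 75.56% at day 9, 73.33% at day 28 and 64.44% at all 3, and the difference was 31.95 at day 9 and 26.82 at day 28. Distances of 500 bp or 2 kb, the gene's 5′ end alone and the peak centre left these shares within their intervals. Against other genes with a CpG-rich start, a comparison added after seeing the data, the difference of the 28 such genes was -9.12 at day 0 and -3.58 at day 28 with 1e-20 required, and 13.8 at day 9. With 1e-50 it was -23.53 at day 9 and -8.113 at day 28, and it was 0.4557 at day 0.

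Peaks in the windows numbered 50 at day 0 with 1e-20, 23, 60 and 57 with 1e-50, and 82 at day 9 with equal lists. They numbered 43, 86 and 64 in the gene body alone, and 193, 392 and 276 with 50 kb added, where the medians per window were 3, 5 and 4. The median at day 0 was 0 with 1e-50. The share of regions with a peak in all 3 lists was 35.38% with 1e-50. Over whole peaks the hexamer was held by 38.89% of TSS peaks and 58.73% of peaks away from starts at day 9. No paired analysis was possible because the replicates were pooled before peak calling, and for the same reason no replicate could be left out. List length did not follow sequencing depth, since the shortest list came from the pool with the most raw reads, and the mapped depth behind each peak is not in the lists.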
